A study of Mus musculus with 48 samples.

Results

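Twice-a-night (TAN) feeding gives mice food in 2 short windows of the dark phase and none between them. The comparison described here is that of subcutaneous white adipose tissue (sWAT, the inguinal depot) from TAN mice labelled 4 AM with the same tissue labelled 12 AM, by bulk RNA-seq. The members were the libraries TAN1 to TAN4 at 4 AM and TAN1 to TAN4 at 12 AM, chosen by the column labels of the count table, 8 of the 48 libraries in the series. All 48 came from male mice aged 8 months without a transgene, C57BL/6 by the labels and C57BL/6J in the study, on TAN or ad-lib feeding, with 4 libraries of each diet at each of 6 times. The food windows ran from 9 to 11 PM and from 5 to 7 AM in a dark phase from 8 PM to 8 AM. By the count-table labels the 12 AM tissue was taken 1 h after the first meal ended, and the 4 AM tissue 5 h after it and 1 h before the second meal, so that the pair spans the gap between the meals. The study's supplementary expression tables carry the same libraries 12 h away, as 12 PM and 4 PM. Read that way, the tissue was taken 5 h and 9 h after the end of the second meal, in the light phase. The count-table labels are used below, and the choice between the readings cannot be made from these 8 libraries.

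Fat cells take up sugar and lipid after a meal, store them as triglyceride, and release fatty acids when food is withheld. Their genes of sterol synthesis are driven by SREBP2, a factor that cells activate when membrane sterol is short and that insulin also raises. Chaperones and the proteasome fold and remove proteins, and heat shock genes follow body temperature as well as protein load. The tissue also runs a circadian clock, in which CLOCK and BMAL1 (encoded by Arntl) drive the genes of their own repressors, so clock genes change with the hour in fed and fasted animals alike.

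The 8 libraries held 17612576 to 24077286 counts, and the 12 AM libraries differed among themselves in cell content. The summed normalised counts (CPM, scaled to library size) of 10 lymphocyte markers were 1456 in 12 AM replicate 1, 301 in replicate 3, and 9.34 and 12.4 in replicates 2 and 4, against 830 to 1385 at 4 AM. Replicate 1 was the highest of the 8, and replicates 2 and 4 were nearly free of lymphocyte RNA. Endothelial markers summed to 309.6 to 516 CPM at 12 AM and 723 to 916 CPM at 4 AM, without overlap (two-sided exact permutation test, p = 0.02857, the smallest that 4 against 4 can give, and 0.257 after Benjamini-Hochberg adjustment over 9 measures). Macrophage markers summed to 402 to 1599 CPM and 1533 to 2188 CPM, and adipocyte markers to 40200 ± 7992 CPM and 30960 ± 3284 CPM (SD, n = 4; adjusted p = 0.257 for both, exact permutation test). Adipocyte markers were the most abundant of the lists in each library, although the series text speaks of a stromal vascular fraction. Mitochondrially encoded genes took 6.38% to 11.9% of counts at 12 AM and 4.79% to 7.45% at 4 AM. Loci annotated as TEC (awaiting experimental proof, often unspliced) took 0.0340% to 0.0665% at 12 AM and 0.0776% to 0.0937% at 4 AM, without overlap. The TMM scaling factors were 0.975 in 12 AM replicate 1 and 0.763 to 0.792 in the other 12 AM libraries, against 0.985 to 1.10 at 4 AM. The marker sums and their tests use library totals without these factors, whereas CPM of single genes below uses them. In bulk tissue, fewer cells of a type and less RNA per cell cannot be told apart, and the part of these shifts in the results was not tested beyond the covariate fits given below.

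**Figure D1:**
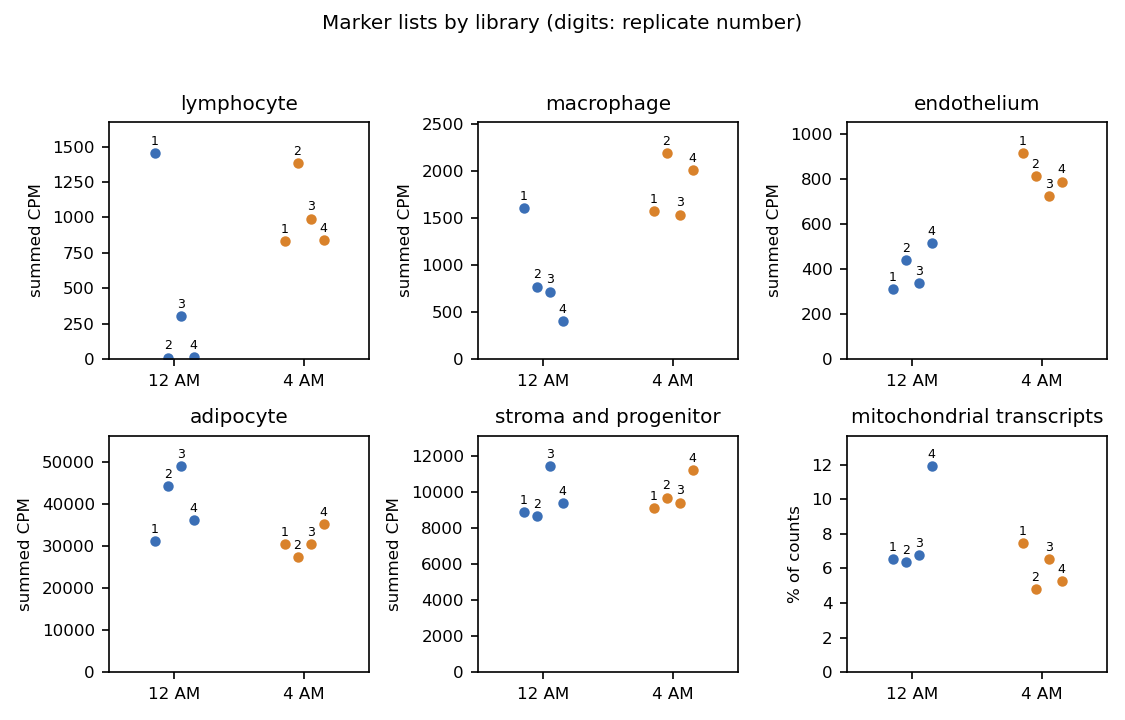
Summed CPM of 5 marker lists and the percentage of counts on mitochondrially encoded genes (y axes, from 0) in each library at 12 AM (blue) and 4 AM (orange), with the replicate number above each point. The 12 AM replicates 2 and 4 lie at 9.34 and 12.4 CPM for lymphocyte markers, replicate 1 lies at 1456 CPM, and the endothelial sums do not overlap.

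The comparison asks how the tissue of TAN mice differed between the hour after the first meal and the hour before the second. Among the genes lower at 4 AM were 10 of 22 sterol genes, 4 of 14 heat shock and cold-inducible genes, 9 of 20 proteasome genes, leptin and the clock output factors Dbp and Hlf, and among those higher were Cpt1a, Cirbp and the IL-33 receptor Il1rl1. Of 19977 genes tested, 504 (2.52%) were lower and 246 (1.23%) higher at 4 AM at an adjusted p under 0.05 (edgeR's quasi-likelihood test, Benjamini-Hochberg). Beyond a log2 fold change of 1 these were 167 and 192. The shares of 2.52% and 1.23% are the background for each count of called list members in this report. The 4 libraries of each group did not overlap in 471 of the 504 and in 234 of the 246. Of all tested genes 8.82% lay without overlap below and 11.9% above. The calls were made from these same libraries, so this separation describes them and is no separate support. Genes that fell were abundant, with a median of 91.8 CPM at 12 AM against 7.69 CPM for all tested genes, and 97.2% were protein coding, against 82.5% of those that rose and 76.4% of all. The median log2 fold change of all tested genes was 0.16.

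The number of calls moved with single libraries. Leaving out 12 AM replicate 1 gave 1406 genes lower and 1424 higher. Leaving out 12 AM replicates 2, 3 or 4 gave 36, 86 and 386 lower and 20, 25 and 137 higher. Leaving out 4 AM replicates 1 to 4 in turn gave 125, 63, 120 and 226 lower and 37, 16, 46 and 99 higher. With the lymphocyte marker level as a covariate 187 were lower and 111 higher. With the TEC share as a covariate 39 were lower and 9 higher, and without 12 AM replicates 2 and 4 together 14 and 3. Both fits were chosen after the data were seen. The TEC share did not overlap between the groups, so its covariate is tied to the contrast and can lose calls whatever the cause. Fewer 12 AM libraries can also lose calls through lower power. Lost calls in either fit, here and for the lists below, therefore do not show a cause. As calls moved with single libraries, each gene below is given with the number of the 8 fits without 1 library that still called it.

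**Figure D2:**
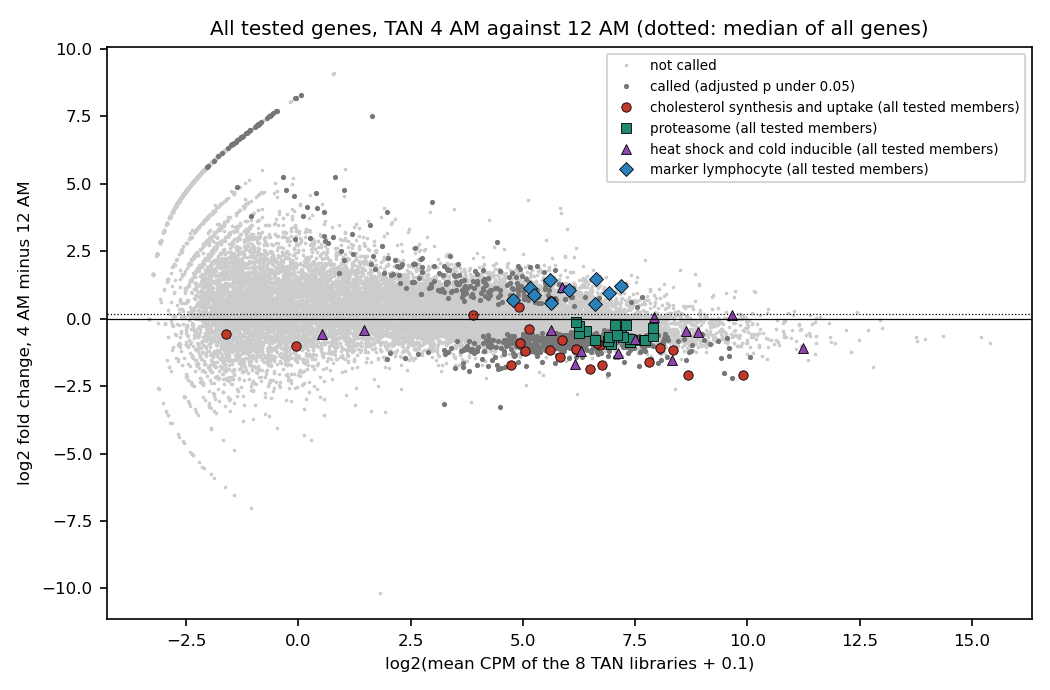
Log2 fold change of 4 AM over 12 AM (y axis) against log2 of the mean CPM of the 8 libraries plus 0.1 (x axis) for the 19977 tested genes, with called genes in dark grey and all tested members of 4 lists in colour. The 20 listed proteasome genes lie below 0 and all 10 lymphocyte markers above it, and no lymphocyte marker was called.

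Sterol genes had the highest share of calls of the lists, with 10 of 22 lower (45.5%, against 2.52% of all genes), 0 higher, and a median log2 fold change of -1.11. Cyp51, the lanosterol demethylase (GRCm38 chromosome 5, 4081145 to 4104746), stood at 92.9, 233, 181 and 154 CPM in 12 AM replicates 1 to 4 and at 55.9, 38.5, 57.2 and 51.1 CPM at 4 AM. Replicate 1 was the lowest at 12 AM and still above every 4 AM library. The log2 fold change was -1.70 ± 0.23 (SE; adjusted p = 8.44e-05, edgeR). Msmo1, the sterol methyl oxidase, stood at 103, 205, 143 and 115 CPM and then at 38.6, 27.9, 44.1 and 45.8 CPM, a change of -1.85 ± 0.30. Mvd, which makes isopentenyl diphosphate, stood at 26.3, 47.95, 53.4 and 35.6 CPM and then at 9.12, 12.5, 11.8 and 16.4 CPM, a change of -1.71 ± 0.31. In all 3 genes the groups stayed apart. Dhcr7, the last enzyme of cholesterol synthesis, fell from a mean of 67.1 to 29.8 CPM (-1.17 ± 0.20) and Fdft1, squalene synthase, from 334 to 111 CPM (-1.60 ± 0.31). Sc5d, a sterol desaturase, fell from 658 to 155 CPM (-2.09 ± 0.43), and Insig1, which holds SREBP in the endoplasmic reticulum when sterol is plentiful, from 1558 to 368 CPM (-2.08 ± 0.58).

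Cyp51, Msmo1 and Mvd were called in each of 22 alternative fits, Dhcr7 and Fdft1 in all 8 fits without one library, and Sc5d in 7, the exception being 12 AM replicate 2 (-1.76). Insig1 was called only without 12 AM replicate 1, at -2.32 to -1.88 over the 8. The number lower in the list ran from 5 to 15 over those fits, with medians of -1.25 to -1.0045. It was 7 with the lymphocyte covariate, 4 with the TEC covariate and 3 without 12 AM replicates 2 and 4. In ad-lib mice the list's median at 4 AM against 12 AM was -0.06, and in TAN mice at 4 PM against 12 PM it was -0.40. Cyp51 itself changed by -0.24 ± 0.22 and -0.79 ± 0.23 there. Its difference between TAN and ad-lib was -1.46 ± 0.32, at an adjusted p of 0.101 over all genes (edgeR), which misses the threshold.

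**Figure D3:**
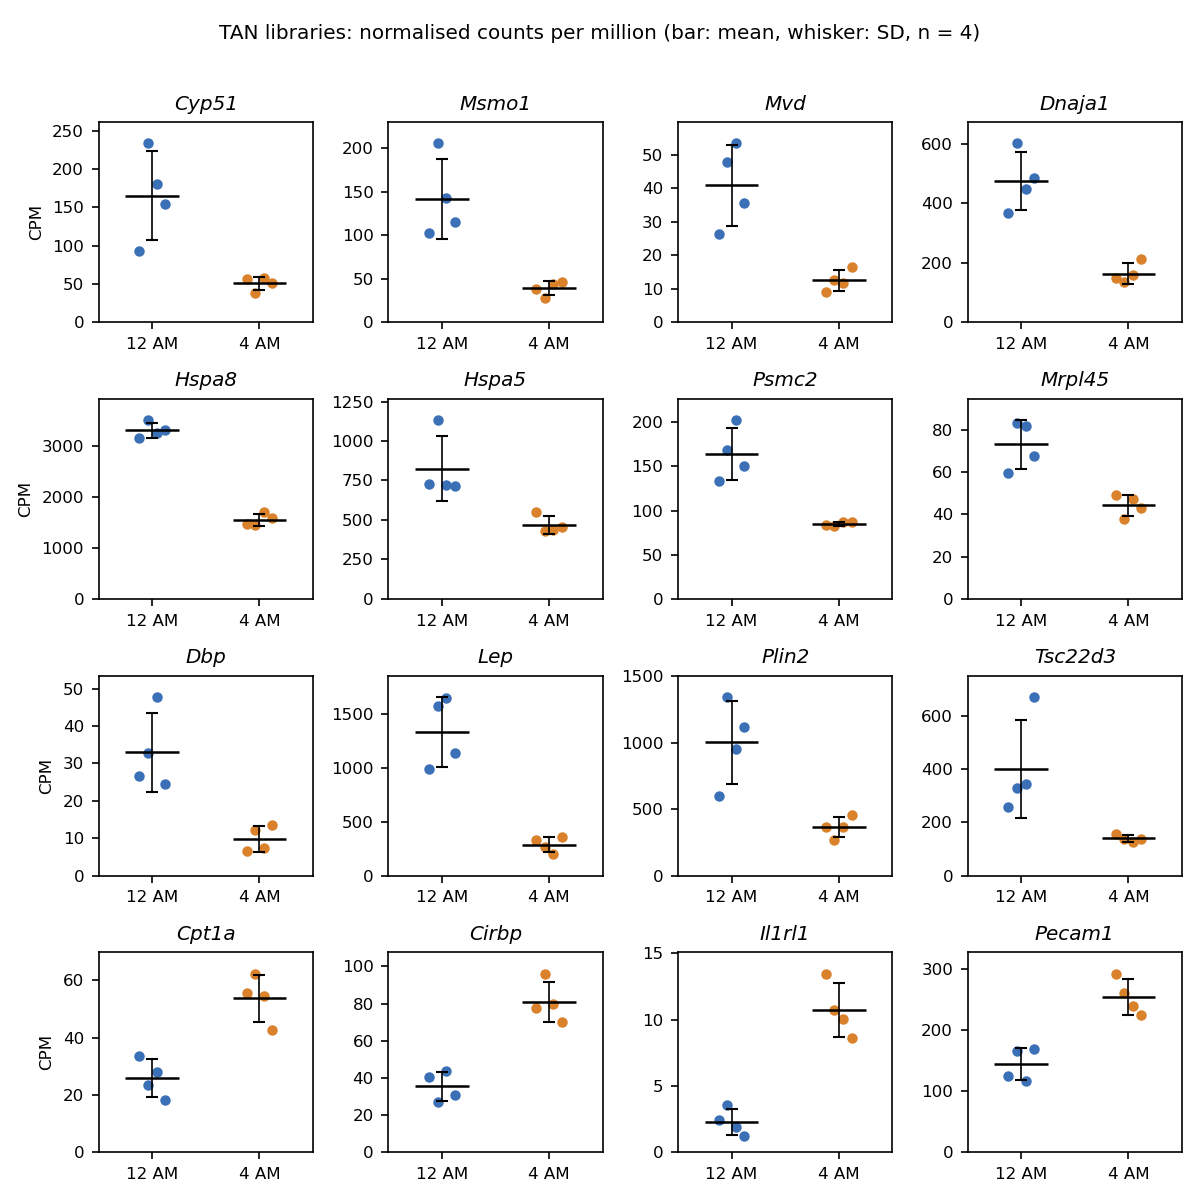
CPM (y axes, from 0) of 16 genes in each library at 12 AM (blue) and 4 AM (orange), with the mean (bar) and SD (whisker) of 4 libraries. Cyp51 runs from 92.9 to 233 CPM at 12 AM and from 38.5 to 57.2 CPM at 4 AM, and the bottom 4 panels, Cpt1a, Cirbp, Il1rl1 and Pecam1, are higher at 4 AM.

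Among 14 heat shock and cold-inducible genes, 4 were lower (28.6%) and 1 higher, with a median of -0.51. Dnaja1, a co-chaperone of HSP70, stood at 368, 602, 449 and 485 CPM at 12 AM and at 149, 134, 159 and 213 CPM at 4 AM (-1.54 ± 0.22, adjusted p = 0.000112, edgeR). Chordc1, which binds HSP90, stood at 191, 223, 173 and 192 CPM and then at 71.6, 73.5, 88.1 and 89.9 CPM (-1.27 ± 0.18). Hspa8, the constitutive HSP70, stood at 3156, 3505, 3260.1 and 3312 CPM and then at 1468, 1453, 1699 and 1594 CPM (-1.09 ± 0.28). Each group was narrow and the groups were far apart. Hsph1, the exchange factor HSP110, fell from 109 to 34.0 CPM (-1.67 ± 0.35). Cirbp, an RNA-binding protein induced by mild cooling, rose from 40.4, 27.2, 43.8 and 30.9 CPM to 77.6, 96.04, 79.5 and 70.1 CPM (1.18 ± 0.27, adjusted p = 0.0139, edgeR). Dnaja1, Chordc1 and Hsph1 were called in all 8 fits without one library, Cirbp in 6 (lost without replicate 2 of either group) and Hspa8 in 2, at -1.14 to -1.06. In ad-lib mice the log2 fold changes were -0.65 for Dnaja1, -0.59 for Chordc1, -0.95 for Hsph1, -0.47 for Hspa8 and 0.88 for Cirbp. The ad-lib 4 AM libraries were spread, with Hspa8 at 1846 ± 1054 CPM (910 to 2908 CPM) and Dnaja1 at 214 ± 60 CPM (SD, n = 4).

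Heat shock factor binds inverted GAA repeats, and 3 of the 4 chaperone genes that fell had a promoter in the RefSeq table (GRCm38.p6, 250 bases before to 50 after a start). The letters GAANNTTCNNGAA, on either strand, lay in 3 of the 6 promoters of these genes (Chordc1 and Hsph1), in 5 of 16 promoters over the list and in 0.6% of all 32851 promoters. The others in the list that hold it, Hspd1 and Hspe1, were not called. The stretches with the match are shown because they belong to Chordc1 and Hsph1, which were called without any one library, with the matched bases in capitals. In Chordc1 there were 3 overlapping matches, from 4 bases before to 18 after the start (chr9:18292248-18292300, plus strand), and in Hsph1 there was 1, from 15 to 27 after it (chr5:149636273-149636315, minus strand).
Chordc1: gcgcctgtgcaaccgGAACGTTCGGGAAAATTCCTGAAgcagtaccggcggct
Hsph1: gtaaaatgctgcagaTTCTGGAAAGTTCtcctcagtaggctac
These are matches of letters and not measured sites. The sterol element TCACNCCAC lay in 1.24% of all promoters and in 0 of 10 promoters of the 8 sterol genes that fell and had an entry, which says only that these letters are not in those windows. Both elements were chosen after the values were seen.

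Of 22 genes of the unfolded protein and integrated stress responses, 5 were lower (22.7%) and 0 higher, with a median of -0.43. Ddit3, which encodes the stress factor CHOP, stood at 31.7, 43.4, 36.4 and 34.3 CPM and then at 15.1, 15.1, 16.3 and 19.8 CPM (-1.14 ± 0.22, adjusted p = 0.0039, edgeR). Hspa5, the endoplasmic reticulum chaperone BiP, fell from 824.53 to 467 CPM (-0.82 ± 0.18), with 12 AM replicate 2 at 1132 CPM and the other three at 714 to 730 CPM. Atf4, the factor upstream of Ddit3, fell from 175 to 101 CPM (-0.79 ± 0.21), Dnajb9, a co-chaperone of BiP, from 116 to 62.3 CPM (-0.90 ± 0.25), and Trib3, a pseudokinase induced by ATF4, from 14.1 to 5.95 CPM (-1.24 ± 0.36). Chac1, another ATF4 target, stood at 8.32 and 2.23 CPM and missed the threshold (-1.90 ± 0.58, adjusted p = 0.0513, edgeR). Ddit3 was called in all 8 fits without one library, Hspa5 in 7 (-0.63 without 12 AM replicate 2), Atf4 in 3, Dnajb9 in 2 and Trib3 in 1. None of the list was called with the TEC covariate or without 12 AM replicates 2 and 4.

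Of 20 listed proteasome genes, 20 had negative fold changes, from -0.94 to -0.13, and 9 were lower (45%), with a median of -0.64. Whether their signs differ from those of other genes of like abundance was not tested. Over all 48 tested genes named for the proteasome, collected after the values were seen, 44 were negative, 4 were positive (up to 0.51) and 17 were lower (35.4%), with a median of -0.52. These 48 gave 1 to 26 lower over the 8 fits without one library, and 0 with the TEC covariate, at a median of -0.17. Psmc2, an ATPase of the regulatory cap, stood at 133, 169, 202 and 151 CPM and then at 83.6, 82.5, 86.9 and 87.6 CPM (-0.94 ± 0.18, adjusted p = 0.00308, edgeR). Its 4 AM libraries were nearly level. Psma1, a core subunit, fell from 218 to 125 CPM (-0.80 ± 0.20), Psmd14, the deubiquitinase of the lid, from 152 to 86.1 CPM (-0.82 ± 0.21), and Psmc3, another cap ATPase, from 168 to 121 CPM (-0.47 ± 0.13). Psmc2 was called in all 8 fits without one library. The list of 20 gave 13 calls without 12 AM replicate 1, 9 without replicate 4, and 1 or 2 without any other library, 1 with the lymphocyte covariate, and 0 with the TEC covariate or without 12 AM replicates 2 and 4. Its median was -0.73 to -0.57 over the fits without one library and -0.20 with the TEC covariate. It was 0.13 in ad-lib mice and 0.32 in TAN mice at 4 PM against 12 PM.

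Families collected by symbol after these values had been seen are given as a description. Of all tested genes 2.52% were lower and 1.23% higher. Genes called lower were abundant as a whole, with a median of 91.8 CPM at 12 AM against 7.69 CPM for all tested genes. Whether these families differ from other genes of like abundance was not tested. Of 77 mitochondrial ribosomal proteins, which serve translation inside the organelle, all 77 had negative fold changes (-1.34 to -0.18, median -0.72) and 29 were lower (37.7%). Mrpl45 stood at 59.5, 83.2, 81.9 and 67.6 CPM and then at 49.2, 37.7, 47.2 and 43.2 CPM (-0.72 ± 0.14) and was called in all 8 fits without one library. Across those fits 1 to 61 of the 77 were lower, with 61 without 12 AM replicate 1 and 1 without replicate 2 of either group, and with the TEC covariate 0 (median -0.25). Mitochondrial import genes were lower in 7 of 22 (median -0.68), with Timm29 at -0.98 ± 0.20 and Timm10, a chaperone between the membranes, at -1.28 ± 0.32. The vacuolar proton pump, which acidifies lysosomes, was lower in 6 of 18 (median -0.66), with Atp6v1g1 at -1.05 ± 0.23. Translation initiation factors were lower in 8 of 54 (median -0.29), and the helicase Eif4a1 fell from 757.53 to 396 CPM (-0.94 ± 0.20). J-domain co-chaperones were lower in 6 and higher in 2 of 41, with Dnaja2 at -0.84 ± 0.17. Chaperonin subunits, collected in the same way, were lower in 1 of 8 (median -0.36). Mitochondrially encoded genes were lower in 3 of 27, with 9 positive and 18 negative (-2.29 to 0.99, median -0.61). Over the 8 fits without one library, 0 to 14 import genes, 0 to 9 of the proton pump, 1 to 17 initiation factors and 1 to 12 J-domain genes were lower. With the TEC covariate these were 0, 0, 0 and 1, at medians of -0.25, -0.30, -0.14 and -0.20. Timm29, Eif4a1 and Dnaja2 were called in 7 of the 8 fits, lost without 12 AM replicate 2, Atp6v1g1 in 5 and Timm10 in 3.

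Nuclear genes of the respiratory chain had negative fold changes in 26 of 26, with a median of -0.70, and 2 were lower. The median of all tested genes was 0.16. Whether this list and the TCA cycle genes differ in sign from other genes of like abundance was not tested. Ndufs7, a complex I subunit, stood at 200.1, 322, 326 and 292 CPM and then at 168, 125, 154 and 135 CPM (-0.97 ± 0.23), and Ndufb5, also of complex I, fell from 199 to 110.3 CPM (-0.85 ± 0.24). They were called in 5 and 1 of the 8 fits without one library, and the list gave 20 calls without 12 AM replicate 1 and 0 without replicate 2. With the lymphocyte and the TEC covariate it gave 0 calls, at medians of -0.42 and -0.28. Of 20 TCA cycle genes edgeR called 0 (13 lower at an unadjusted p under 0.05, DESeq2 6 lower, limma voom 0), with 19 negative and a median of -0.59. Of 20 cytosolic ribosomal proteins 0 were called by edgeR, DESeq2 or limma voom and 0 had an unadjusted p under 0.05, with fold changes of -0.33 to 0.17 around a median of -0.05.

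**Figure D4:**
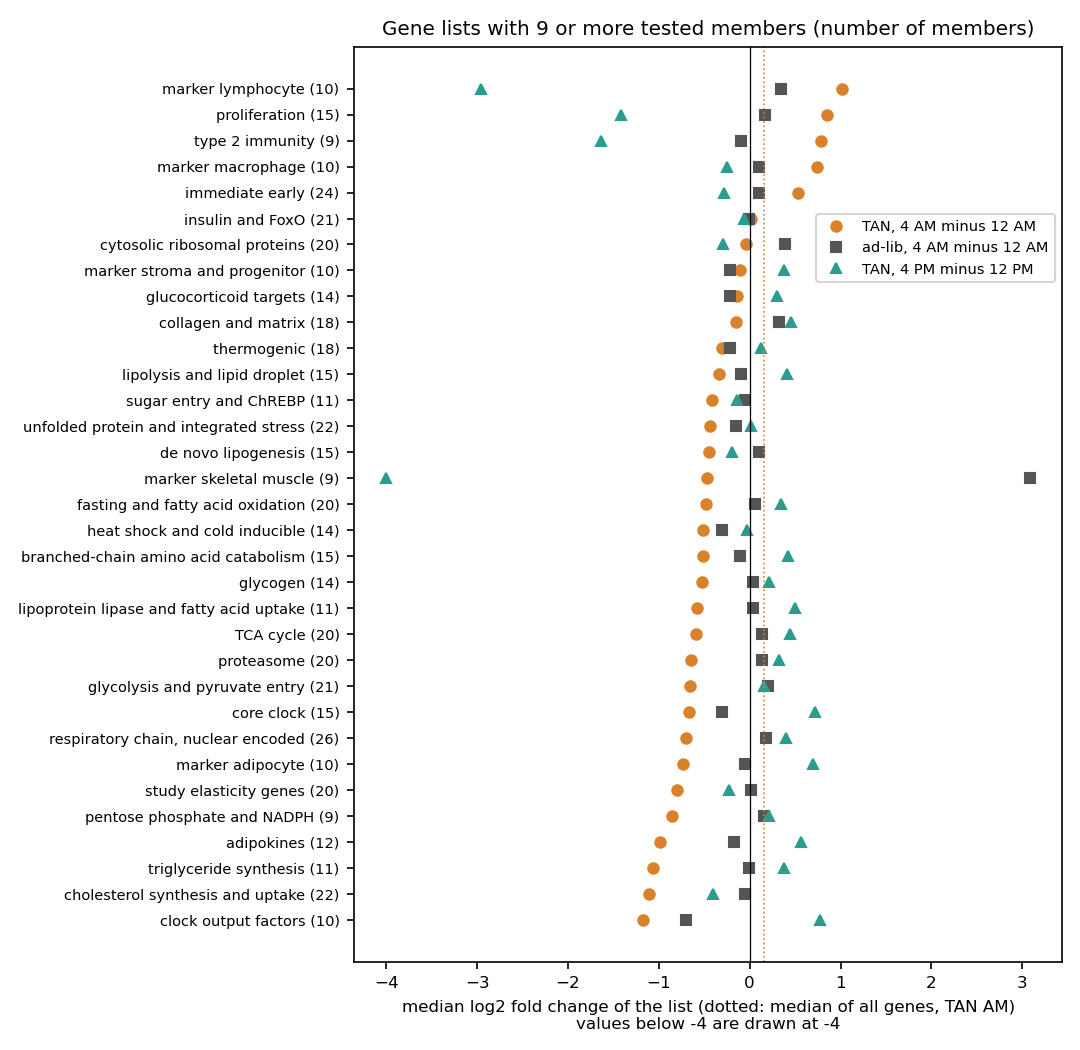
Median log2 fold change (x axis) of the lists with 9 or more tested members (rows, number in brackets), without the families collected by symbol. Orange circles are TAN 4 AM over 12 AM, dark squares ad-lib 4 AM over 12 AM and green triangles TAN 4 PM over 12 PM. Values under -4 are drawn at -4, and the median of all genes (0.16) is dotted. In TAN, clock output factors lie at -1.18, sterol genes at -1.11 and lymphocyte markers at 1.02, and the skeletal muscle markers of the other comparisons lie at 3.08 and -8.08.

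In each of 4 lists on lipid droplets, sugar entry, the pentose phosphate pathway and glycogen, edgeR called 1 gene lower and 0 higher. Plin2, which coats lipid droplets, stood at 600.1, 1344, 951 and 1116 CPM and then at 367, 268, 367 and 454 CPM (-1.46 ± 0.34, adjusted p = 0.0173, edgeR). Mlx, the partner of the sugar sensor ChREBP, fell from 84.0 to 36.8 CPM (-1.19 ± 0.22), Rpia, of the pentose phosphate pathway, from 81.2 to 32.1 CPM (-1.34 ± 0.25), and Ppp1r3d, which targets protein phosphatase 1 to glycogen, from 44.4 to 14.6 CPM (-1.60 ± 0.42). Their lists held 15, 11, 9 and 14 tested genes, of which DESeq2 called 3, 3, 4 and 5 lower and limma voom 1, 1, 1 and 2. The 4 genes were called in 4, 7, 8 and 3 of the 8 fits without one library. Thrsp, a lipogenic factor, stood at a mean of 11133 and 3186 CPM (-1.80 ± 0.55, adjusted p = 0.0514), Dgat2, which makes triglyceride, at 3875 and 1329 CPM (-1.54 ± 0.49, adjusted p = 0.059), and Abhd5, a co-activator of lipolysis, at 311 and 125 CPM (-1.31 ± 0.41, adjusted p = 0.0549, all edgeR). None of these passed, although their groups did not overlap. Of 15 genes of de novo lipogenesis edgeR called 0 (3 at an unadjusted p under 0.05, DESeq2 1, limma voom 0), with a median of -0.45, and of 11 of triglyceride synthesis 0 (6 lower and 1 higher unadjusted, DESeq2 5, limma voom 0), with a median of -1.07. Of the 20 metabolic elasticity genes, a set that the study took from earlier work, edgeR called 2 lower, Mvd and Lep. In this set 16 were negative and 4 positive, with a median of -0.80. Unadjusted, 8 were lower and 1 higher, DESeq2 called 8 lower and 1 higher, and limma voom 2 lower.

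Angptl8, a feeding-induced inhibitor of lipoprotein lipase, and Ppp1r3b, another glycogen-targeting subunit, had large differences in both diets without passing in TAN. Angptl8 stood at 128 and 18.7 CPM in TAN (-2.78 ± 0.91, adjusted p = 0.0642, edgeR) and at 92.7 and 11.8 CPM in ad-lib mice (-2.97 ± 0.92). Ppp1r3b stood at 578 and 95.6 CPM in TAN (-2.60 ± 0.83, adjusted p = 0.0605) and at 252 and 38.6 CPM in ad-lib mice (-2.71 ± 0.83). The differences between the diets were 0.19 ± 1.204 and 0.11 ± 1.10, errors too wide to show that the diets act alike. Angptl4, the lipase inhibitor that fasting raises, stood at 164.54 and 397.46 CPM (1.27 ± 0.41, adjusted p = 0.0606). Of 20 genes of fasting and fatty acid oxidation edgeR called Cpt1a, which admits fatty acids to mitochondria, higher and 0 lower, and DESeq2 called 1 higher and 1 lower. Cpt1a rose from 33.6, 23.7, 28.1 and 18.4 CPM to 55.6, 62.4, 54.4 and 42.7 CPM (1.05 ± 0.25, adjusted p = 0.0196, edgeR). Ppm1k, the phosphatase that activates branched-chain amino acid oxidation, rose from 26.7 to 42.9 CPM (0.68 ± 0.16). They were called in 2 and 3 of the 8 fits without one library. Gapdh was called lower (-3.28 ± 0.95) on 3.07, 79.6, 73.8 and 5.81 CPM at 12 AM and 2.28 to 6.05 CPM at 4 AM, with overlap, and was called in 2 of those fits. As a gene with many near-identical copies it is uncertain.

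Of 12 adipokines, 3 were lower (25%). Lep, which encodes leptin, stood at 987, 1574, 1644 and 1135 CPM at 12 AM and at 331, 264, 202 and 357 CPM at 4 AM (-2.21 ± 0.64, adjusted p = 0.0438, edgeR). Nampt, the NAD-salvage enzyme, stood at 376, 709, 558 and 694 CPM and then at 274, 229, 245 and 236 CPM (-1.25 ± 0.31). Apln, which encodes the vasoactive peptide apelin, fell from 24.9 to 8.7452 CPM (-1.51 ± 0.41). In each the groups were apart. Lep and Nampt were called only without 12 AM replicate 1 among the 8 fits without one library, at -2.33 to -2.07 and -1.41 to -1.14, and Apln in 3. With the lymphocyte covariate none of the 12 was called and the median went from -0.99 to -0.43. In ad-lib mice Lep stood at 968 and 719 CPM (-0.43 ± 0.62). Of 14 glucocorticoid targets 2 were lower. Tsc22d3, the leucine zipper protein GILZ, stood at 259, 330, 343 and 672 CPM and then at 158, 137, 127 and 140 CPM (-1.51 ± 0.26), and was called in all 8 fits, at -1.15 without 12 AM replicate 4. Mt1, a metallothionein, fell from 152 to 62.8 CPM (-1.28 ± 0.35) and was called in 1. Of 24 immediate early genes, which mark recent stimulation, edgeR called 0 (2 lower unadjusted, DESeq2 2 lower, limma voom 0), with a median of 0.53.

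In the core clock, 1 of 15 genes was lower and 1 higher (6.67% each, against 2.52% and 1.23% of all tested genes). Nr1d2, the repressor REV-ERB beta, stood at 97.7, 104, 116 and 115 CPM and then at 49.3, 53.9, 51.1 and 49.3 CPM (-1.09 ± 0.29, adjusted p = 0.0306, edgeR). Npas2, which can replace CLOCK, rose from 0.128, 0.439, 0.528 and 0.0692 CPM to 3.44, 2.64, 2.63 and 1.204 CPM (3.07 ± 0.91, adjusted p = 0.0468). These were low levels throughout. Mean CPM at 12 AM and 4 AM was 20.1 and 7.45 for Bhlhe41, 66.1 and 24.7 for Bhlhe40, 19.0 and 8.31 for Per2, 48.1 and 30.3 for Cry1, and 1.79 and 0.519 for Ciart, all repressors, with adjusted p of 0.0831 to 0.237 (edgeR). It was 45.7 and 27.1 for Per3, 51.8 and 39.4 for Cry2, 6.71 and 4.05 for Nr1d1, 13.1 and 10.4 for Per1, 87.2 and 70.5 for Rora, 20.7 and 25.6 for Arntl and 105 and 116 for Clock, with adjusted p of 0.389 to 0.794. Per2 and Per3 were high in 12 AM replicate 4, at 42.2 and 87.6 CPM, where the other three libraries held 9.73 to 12.8 and 27.8 to 35.8 CPM.

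Of 10 clock output genes 4 were lower (40%, against 2.52% of all tested genes). Without overlap, 8 lay lower at 4 AM, against 8.82% of all tested genes. Dbp, which CLOCK and BMAL1 drive directly, stood at 26.7, 32.8, 47.8 and 24.6 CPM and then at 6.61, 12.3, 7.33 and 13.5 CPM (-1.73 ± 0.51, adjusted p = 0.0453, edgeR). Hlf, of the same PAR bZIP family, stood at 49.8, 66.4, 65.3 and 77.0 CPM and then at 22.3, 19.3, 20.0 and 23.4 CPM (-1.60 ± 0.41). Tspan4, a tetraspanin, fell from 231 to 75.6 CPM (-1.61 ± 0.38), and Nampt is the fourth. Tef, the remaining PAR bZIP factor, stood at 251 and 116 CPM (adjusted p = 0.0577), Usp2, a deubiquitinase, at 25.9 and 7.82 CPM (0.0578), Nfil3, a repressor of D-boxes, at 25.6 and 14.7 CPM (0.222) and Wee1, a cell cycle kinase, at 24.4 and 15.3 CPM (adjusted p = 0.161). Klf10 stood at 30.5 and 37.8 CPM and Fmo2 at 78.4 and 75.7 CPM, the latter spread from 18.0 to 162.49 CPM at 12 AM. Nr1d2, Dbp and Hlf were called only without 12 AM replicate 1 among the 8 fits without one library, Npas2 in 0 and Tspan4 in 4, with no change of sign. With the lymphocyte or TEC covariate no output gene was called, at medians of -0.81 and -0.95 against -1.18.

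Over the 6 labelled times the mean of Dbp in TAN mice was 7.85, 31.1, 154, 128, 33.0 and 9.93 CPM from 8 AM to 4 AM, and in ad-lib mice 8.37, 25.7, 102, 44.5, 18.7 and 27.4 CPM. Both were highest at 4 PM, in the light phase, by the count-table labels, which under the other labels would be 4 AM, in the dark phase. Nr1d1, the repressor REV-ERB alpha, was also highest at 4 PM, at 138 CPM in TAN and 92.3 CPM in ad-lib mice. At 4 AM it was 4.05 ± 0.82 CPM in TAN mice (SD, n = 4) but 54.5, 7.44, 69.9 and 4.62 CPM in the ad-lib libraries, of which replicates 1 and 3 stand apart. CACGTG, the E-box of CLOCK and BMAL1, lay in 7.15% of all promoters, in 4 of 16 promoters of the 12 core clock genes with an entry, in 3 of 11 of the 8 output genes with one, and in 1 of 5 of the 4 output genes that fell. That gene was Tspan4, with the box in 1 of its 2 promoters, 51 to 46 bases before the start (chr7:141476314-141476349, plus strand), shown in capitals.
Tspan4: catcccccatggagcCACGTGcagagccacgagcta
The D-box, TTACGTAA or TTATGTAA, lay in 1 of those 16 core clock promoters and in none of the 11 output promoters, against 1.06% of all promoters.

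**Figure D5:**
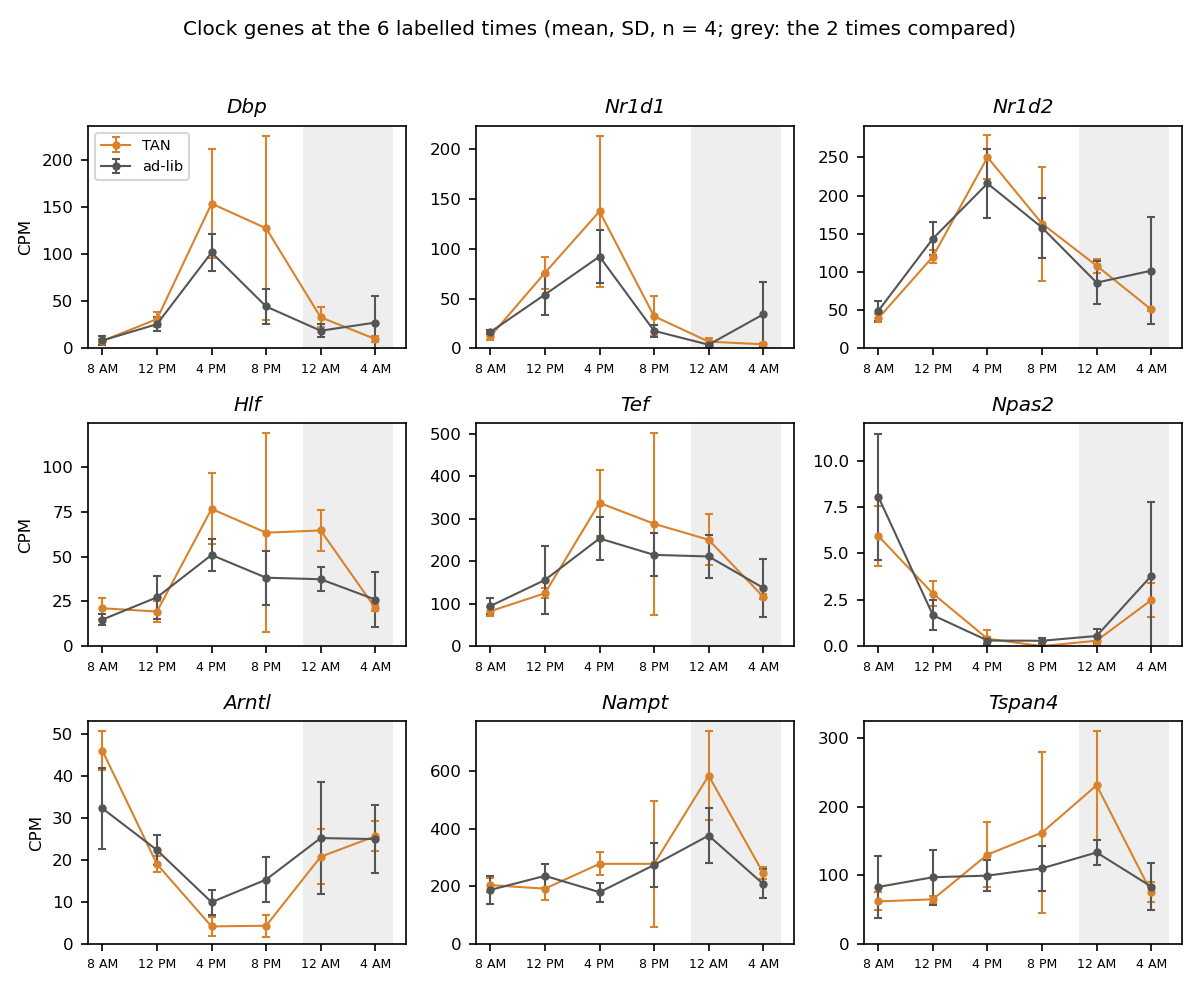
Mean CPM (y axes, from 0; whiskers SD, n = 4) of 9 clock and output genes at the 6 times of the count-table labels (x axes) in TAN (orange) and ad-lib (dark grey) mice, with 12 AM and 4 AM shaded. In TAN mice Dbp is highest at 4 PM (154 CPM) and goes from 33.0 to 9.93 CPM between the shaded times.

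Several genes that rose are expressed by other cell types. Il1rl1, the IL-33 receptor ST2 of type 2 lymphoid cells, regulatory T cells and mast cells, stood at 2.43, 3.58, 1.88 and 1.25 CPM at 12 AM and at 13.5, 10.7, 10.1 and 8.64 CPM at 4 AM (2.23 ± 0.38, adjusted p = 0.00115, edgeR). It was called in each of the 22 alternative fits, the lymphocyte covariate included. Il33, its ligand, stood at 47.2, 12.4, 16.2 and 2.28 CPM and then at 52.7, 40.9, 31.6 and 33.5 CPM, with overlap (adjusted p = 0.242). In ad-lib mice Il1rl1 stood at 7.85 and 7.65 CPM, and the difference between the diets was 2.26 ± 0.52 at an adjusted p of 0.178 (edgeR). It was the only call of edgeR among 9 type 2 immunity genes tested of 14 listed. Of 10 macrophage markers all 10 were positive and 1 was higher, Csf1r, the receptor of macrophage growth factor, from 43.9 to 95.5 CPM (1.122 ± 0.33). Of 8 endothelial markers 7 were positive and 1 was negative (-0.46). EdgeR called 1 higher, Pecam1 (3 higher unadjusted, DESeq2 2, limma voom 1). Pecam1 stood at 126, 166, 118 and 169 CPM and then at 293, 260.4, 240 and 226 CPM (0.82 ± 0.21). Csf1r and Pecam1 were called in 1 and 3 of the 8 fits without 1 library. Of 10 lymphocyte markers edgeR, DESeq2 and limma voom called 0 and 0 passed unadjusted, with a median of 1.02. Cd79a, of the B cell receptor, stood at 150.1, 1.82, 56.3 and 1.18 CPM and then at 125 to 192 CPM. Of 15 proliferation genes edgeR called 0 (2 higher unadjusted, DESeq2 and limma voom 0), and Top2a, a topoisomerase of dividing cells, stood at 20.96, 1.82, 3.87 and 4.64 CPM and then at 22.6 to 30.6 CPM. Lymphocyte and proliferation transcripts at 12 AM were high in replicate 1.

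The 8 highest fitted fold changes by the rule for named genes belonged to genes with 0 counts in every 12 AM library and at most 2.69 CPM at 4 AM. Each fold is a lower bound against 3 counts per library, and these bounds do not show that the rises were the largest. F730311O21Rik, a lincRNA, stood at 1.16, 2.69, 2.68 and 0.943 CPM at 4 AM, at least 10.7-fold higher (adjusted p = 0.000785, edgeR). Pld5 was at least 9.85-fold higher, the calcium-binding Cabp1 at least 7.10-fold, the lincRNA Gm13994 at least 6.97-fold, Crip3 at least 6.64-fold, the lincRNA 3300005D01Rik at least 6.35-fold, Gm9733 at least 6.22-fold and Chkb, choline kinase beta, at least 6.15-fold. F730311O21Rik, Cabp1 and Gm9733 were called in all 8 fits without one library, Chkb in 6, Pld5 in 5, Gm13994 and Crip3 in 4 and 3300005D01Rik in 1. In ad-lib mice their means were 0.429 to 1.88 CPM at either hour. Of the 246 genes that rose, 47 had at most 3 counts in each 12 AM library, and of the 504 that fell 0 had so few in each 4 AM library. Among called genes whose groups did not overlap and that had at least 10 counts in each 12 AM library, which leaves out Gapdh, the largest falls were Peg10, Lep, Sc5d, Insig1, Mid1ip1, Phlda3, Hdhd3 and Msmo1. Peg10, an imprinted retrotransposon-derived gene, stood at 8.22, 11.2, 24.7 and 23.3 CPM and then at 1.66 to 2.04 CPM (-3.17 ± 0.76). Mid1ip1, which promotes lipogenesis, fell from 192 to 45.9 CPM (-2.07 ± 0.51), Phlda3, an inhibitor of AKT, from 1142 to 285 CPM (-2.002 ± 0.43) and Hdhd3 from 22.1 to 5.76 CPM (-1.94 ± 0.41). They were called in 3, 3, 6 and 6 of the 8 fits without one library.

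Whether the change from 12 AM to 4 AM differed between TAN and ad-lib mice was tested in the same fit. edgeR called 0 of 19977 genes (0%), with a smallest adjusted p of 0.0572 (F730311O21Rik), although 2992 genes had an unadjusted p under 0.05. Of the 750 called genes, 642 were among these 2992. The 750 were called from the same 8 TAN libraries that enter this test, which favours a small p in it. The 642 are therefore no separate evidence of a difference between the diets. DESeq2 called 170 and limma voom 4, and edgeR called 32 without ad-lib 4 AM replicate 1. In ad-lib mice the genes that fell in TAN had a median log2 fold change of -0.04 and 279 of the 504 were negative, and those that rose had a median of -0.015 with 117 of 246 positive. In TAN mice at 4 PM against 12 PM, which share no library with the 8, the medians of the same genes were 0.28 and -0.55, against -0.12 for all tested genes. No gene's change is therefore called particular to TAN here.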

How the data were processed

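RNA was read from poly-A libraries of inguinal fat primed with random hexamers. Strandedness is not given in the sources used here, so overlapping and antisense genes cannot be told apart. The authors deposited whole-number counts per gene and their own mean FPKM per group. The deposited FPKM values are group means without replicates and were not used for tests. The submitters' processing notes name TopHat 1.3.3, DESeq2 1.20.0, limma and edgeR and the builds mm9, mm10 and GRCm38, without roles. Of 54532 genes in the table, 98.1% have the start and end of GENCODE M21 (GRCm38). Every count column was mapped to a sample by its name, and 0 were left unused.

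Counts were scaled by TMM and fitted with edgeR 4.0.16 (R 4.3.3, glmQLFit, robust) over 48 libraries in 12 groups, after filterByExpr with a minimum count of 10, and called at an adjusted p under 0.05 over all genes. The SE is the absolute log2 fold change over the root of the F statistic. CPM of single genes uses TMM library sizes, and summed CPM of marker lists uses library totals without TMM. Fold changes of genes at 0 are bounds against 3 counts. Alternatives used DESeq2 1.42.0 and limma 3.58.1. The scripts were tested on simulated data. Marker sums were compared by a two-sided exact permutation test over 70 assignments. The labels number the 4 libraries of a group and do not state that each is a separate animal, so p-values measure the spread between these libraries, which may be technical. No pair of the 8 was identical. The members, gene lists and motifs were chosen with earlier results of these data known. Named genes are at most 6 of lowest p in a list, the clock lists whole except for 1 gene not reported here, and the 8 called genes with the largest fitted fold change in each direction with at least 10 counts in the higher group and no overlap. Other named members of the families picked by symbol were chosen after their values were seen.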

Additional observations from a re-analysis of the deposited data

Results flagged for a closer look

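In 212 groups of 4 values (named genes and quality measures, by group), a single library lay far from the other three in 8, where chance alone flags about 1 group in 20. Fdft1 stood at 70.6 CPM in 4 AM replicate 2 against 122 to 125 CPM in the other 4 AM libraries. Hspa5 stood at 1130 CPM and Mlx at 132 CPM in 12 AM replicate 2, against 714 to 730 CPM and 66.3 to 70.7 CPM. Among the genes at 0 counts at 12 AM, Cabp1 stood at 0.657 CPM in 4 AM replicate 3 (others 1.34 to 1.52 CPM) and Crip3 at 0.465 CPM in 4 AM replicate 1 (others 1.29 to 1.52 CPM). Mitochondrially encoded genes took 11.9% of counts in 12 AM replicate 4 (others 6.38% to 6.77%). Skeletal muscle markers summed to 454 CPM in 12 AM replicate 3 (others 9.05 to 28.1 CPM), and mammary epithelial markers to 4.57 CPM in 12 AM replicate 1 (others 0.287 to 0.769 CPM). The part of these libraries in the calls is given by the fits that leave each of them out.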

How the results depend on the processing

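The counts of genes higher and lower at 4 AM were 246 and 504. They stayed within 1.5 times of this with RLE factors (257 and 682), at least 10 counts in every library (365 and 730), limma voom (283 and 414), the 24 TAN libraries alone (275 and 459), mitochondrially encoded genes or immune receptor segments left out, and a muscle marker covariate. They moved to 55 and 204 with no filter, 654 and 1362 with DESeq2, 674 and 880 with only the 8 libraries, and 111 and 187 with the lymphocyte covariate. With an unadjusted p under 0.05 they were 2606 and 2402, and 167 of the lower genes passed a log2 fold change of 1. Without one library they ran from 16 to 1424 higher and from 36 to 1406 lower. Without 12 AM replicates 2 and 4 they were 3 and 14, and with the TEC covariate 9 and 39. The number of genes whose change differed between the diets was 0, 4 with at least 10 counts in every library, 170 with DESeq2, 4 with limma voom, 1 with the TEC covariate, 2992 unadjusted, and 0 to 32 without one library. The causes were not tested.

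With the replicate block the counts were 114 higher and 251 lower. Correlations of same-numbered libraries were -0.14, -0.12, 0.01 and 0.01, which gives no sign that the replicate numbers pair the samples. Values from so few libraries cannot exclude a pairing.

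Signs turned only for genes that were not called. Fmo2 went to 0.0038 with at least 10 counts in every library, 0.39 with limma voom, 0.0065 with only the 8 libraries, 0.0637 with the replicate block, 1.01 with the lymphocyte covariate, 1.14 without 12 AM replicates 2 and 4 and 0.19 with the TEC covariate, and ran from -0.3796 to 0.5867 without one library. Rora went to 0.30 with the lymphocyte covariate and 0.17 without 12 AM replicates 2 and 4, and Per1 ran from -0.6284 to 0.0558 without one library, the latter without 12 AM replicate 4. Of 63 named genes called, 6 were called in every alternative and 17 in all 8 fits without one library.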
